A study of Mus musculus with 12 samples.

Results

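A set of 36 genes that mark blood vessel endothelium and the hemogenic endothelium that gives rise to blood was followed in whole mouse embryos with and without a normal Rpl10a gene. The members were chosen by gene symbol, from known roles, and each was found in the deposited table through its GENCODE transcript, 1 of 22467 transcripts in all. All 36 had enough reads to be tested. By the main test (edgeR) none passed for a change in ribosome-protected fragments (RPF, the mRNA pieces covered by ribosomes) or for RPF relative to RNA. In RNA 1 passed (Apln, the ligand apelin), lower in the mutant, as did 3.25% of all tested transcripts. An alternative model, limma-voom with sva, called 4 members in RPF, in a fit that called 10.4% of all transcripts, and none in RNA.

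Ribosome profiling and RNA-seq were made from the same 6 embryos at E8.5, 3 Rpl10a +/+ (wild-type, WT) and 3 Rpl10a LOF/LOF, each lysed alone. The embryos were from mice kept on a C57BL/6 background. Rpl10a encodes a protein of the large ribosomal subunit, and the LOF allele, a deletion within an intron, yields a protein lengthened near its N terminus that the study classed as loss of function by complementation crosses. The tissue was the whole embryo, and a lower level of a gene could be fewer cells of a type or less RNA per cell, which cannot be told apart here.

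Endothelial cells line blood vessels, and at this stage they are being set aside from mesoderm in the yolk sac and embryo. VEGF acts on them through its receptor Kdr, the ETS factor Etv2 starts their programme, and Dll4 and the Notch receptors set arterial identity. Some endothelial cells bud off blood cells under Runx1, and Tal1, Lmo2 and Lyl1 are transcription factors shared by the endothelial and blood lineages.

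RPF libraries held 7041357 to 10863499 counts and RNA libraries 9132521 to 26561843. Rpl10a RPF was 1562, 1611 and 1679 CPM (counts scaled to the normalized size of the library) in WT replicates 1 to 3 and 1125, 1040 and 939.7 in LOF replicates 1 to 3. Sex was not balanced between genotypes. The summed RPF level of 4 Y-linked genes was 163.0 to 181.3 CPM in the WT embryos and 153.3 CPM in LOF replicate 2, against 9.33 and 0.38 CPM in LOF replicates 1 and 3. A covariate for Y-linked reads is thus partly aligned with genotype. Fits with it called 0.175% of all transcripts in RPF and 0.278% in RNA, against 2.19% and 5.02% without it. A call lost in them does not separate sex from genotype. Lists of other cell types also differed between genotypes. Primitive erythroid genes summed to 1405, 853.1 and 2862 RPF CPM in WT and 3611, 5866 and 3574 CPM in LOF, and visceral endoderm genes to 9277, 8321 and 7146 CPM in WT and 3840, 5470 and 2860 CPM in LOF.

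The small ribosomal subunit usually scans from the cap of an mRNA to the start codon, where the large subunit joins and translation begins. The sequences around the start codons of members with many and with few RPF per RNA are shown first. They are from GENCODE M21 transcripts on GRCm38, and are the 4 highest and 4 lowest by WT ratio among the 24 members that also have an entry in the RefSeq promoter table. Each run reads 5′ to 3′ in the direction of the mRNA, with 12 bases before and 5 bases after the start codon, which is in capitals. The position given is that of the start codon.
Apln (chrX:48034503-48034505, minus strand): ccgagttgcagcATGaatct
Erg (chr16:95524563-95524565, minus strand): ctgctgaaggccATGatcca
Flt1 (chr5:147725732-147725734, minus strand): gtcttgctcaccATGgtcag
Emcn (chr3:137341240-137341242, plus strand): tcggtaggcaccATGcggct
Flt4 (chr11:49609770-49609772, plus strand): caggggccggagATGcagcc
Tek (chr4:94739641-94739643, plus strand): atctggggaagtATGgactc
Notch4 (chr17:34564446-34564448, plus strand): aggcgctctggaATGcagcc
Egfl7 (chr2:26589078-26589080, plus strand): ccccacttacagATGcagac

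In WT embryos the log2 ratio of RPF to RNA, both per length, was 1.01 ± 0.11 (SD, n = 3) for Apln, 0.56 ± 0.28 for Erg, 0.33 ± 0.03 for Flt1 and 0.32 ± 0.22 for Emcn. It was -1.14 ± 0.24 for Flt4, -1.24 ± 0.11 for Tek, -1.79 ± 0.12 for Notch4 and -1.94 ± 0.13 for Egfl7. Apln thus stood at percentile 95.0 of the 12564 tested transcripts with a ratio, and Egfl7 at 11.4. The 5′UTRs of Flt4 and Tek hold 6 upstream ATGs each, Egfl7 holds 4 and Erg 3, while Apln, Flt1, Emcn and Notch4 hold none. The triplet therefore occurs among members of high and of low ratio. Over the members, 16 of 36 had an upstream ATG (44.4%, against 49.8% of all tested transcripts), and 29 of 36 had an A or G at position -3, counted back from the A of the start codon (80.6%, against 87.1%). These matches are descriptions of the annotated transcript and show no use of any site.

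The 36 genes covered a wide span of levels in WT embryos. On the scale of reads per length, scaled to an equal total in each library, the apelin receptor Aplnr had the highest RPF level (83.0 ± 11.4, n = 3), followed by the VEGF co-receptor Nrp1 (72.6 ± 3.0), the endothelial cadherin Cdh5 (66.6 ± 3.0), Plvap of the fenestral diaphragm (63.9 ± 4.4), Ramp2, a receptor accessory protein (56.2 ± 2.8), and Kdr (54.7 ± 2.5). In this order Nrp1 and Cdh5, and Plvap and Ramp2, differed by slightly more than the sum of their SDs, and the other neighbours by less. The lowest were Runx1 (1.76 ± 0.36), Notch4 (1.09 ± 0.20), the scavenger receptor Stab2 (0.82 ± 0.26) and Robo4 (0.60 ± 0.17), of which Runx1 and Notch4 differed by more than the sum of their SDs and the later neighbours by less. Cdh5, Pecam1 and Tie1, which define endothelium, were read in every library, and their lowest RPF value was 22.45 CPM, for Tie1 in LOF replicate 1.

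**Figure D1:**
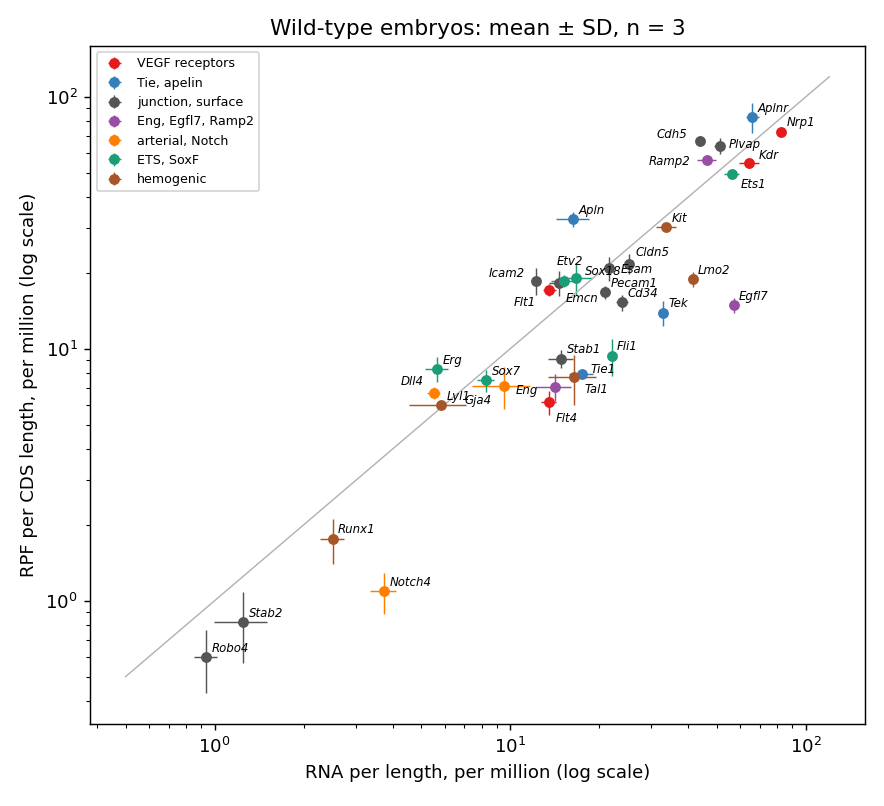
Mean RPF level per CDS length against mean RNA level per transcript length in 3 WT embryos for the 36 genes, both log axes, with SD bars; colours give the gene group and the line marks equal levels. Apln lies above the line at 32.6 against 16.3, and Egfl7 below it at 14.9 against 57.0.

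The members' median RPF to RNA ratio in WT was -0.20 on the log2 scale (quartiles -0.78 and 0.29), and 22 of 36 lay above the median of all tested transcripts, -0.49. The ratio rests on the 1 transcript counted per gene, so another transcript end would move it. Cdh5 and Icam2, both of the cell surface, had ratios of 0.60 ± 0.03 and 0.60 ± 0.13. Other surface genes had lower ratios, among them Stab1 (-0.70 ± 0.03) and Cd34 (-0.64 ± 0.13). The transcription factors also spread widely, from Erg (0.56 ± 0.28), Etv2 (0.30 ± 0.06) and Sox18 (0.19 ± 0.35) to Tal1 (-1.10 ± 0.05), Lmo2 (-1.14 ± 0.09) and Fli1 (-1.246 ± 0.25), so neither class was high or low as a whole. Receptors differed among themselves, with Flt1 at 0.33 ± 0.03 and Kdr at -0.23 ± 0.07 but Flt4 at -1.14 ± 0.24 and Tie1 at -1.14 ± 0.16.

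The first comparison asked whether ribosome occupancy of these mRNAs differed in Rpl10a LOF/LOF embryos. No member passed an FDR of 0.1 in RPF by edgeR's quasi-likelihood test (background 2.19% of 12576 transcripts in either direction), and DESeq2 and limma-voom also called none. Limma-voom with sva, closest to the study's own model, called 4, with Kdr (0.18, adjusted p = 0.0479), Lyl1 (0.57, adjusted p = 0.0741) and Esam (0.31, adjusted p = 0.0983) higher and Stab2 (-1.06, adjusted p = 0.0485) lower, in a fit that called 10.4% of all transcripts. At an unadjusted p under 0.05 there were 4, all higher in LOF (Lyl1, Tal1, Esam and Eng), against a background of 7.12% higher and 13.7% in either direction. The log2 fold change was above 0 for 27 of 36 (background 50.9%), with a median of 0.16 against 0.00 over all tested transcripts. Members ranged from -0.60 to 0.57, with a median SE of 0.16.

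In RNA, 1 of 36 passed an FDR of 0.1, lower in LOF (background 3.25% lower and 1.77% higher). At an unadjusted p under 0.05 the 4 higher were Tal1, Kdr, Lmo2 and Etv2 (background 7.44%) and the 2 lower were Apln and Runx1 (background 9.6%). The embryos of the genotypes did not overlap for 3 members higher in LOF (Etv2, Tal1 and Lmo2, background 10.2%) and for 2 lower (Apln and Runx1, background 12.6%). The log2 fold change was above 0 for 24 (background 49.4%), with a median of 0.08. Of the members, 22 were above 0 and 7 below 0 in both RPF and RNA.

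**Figure D2:**
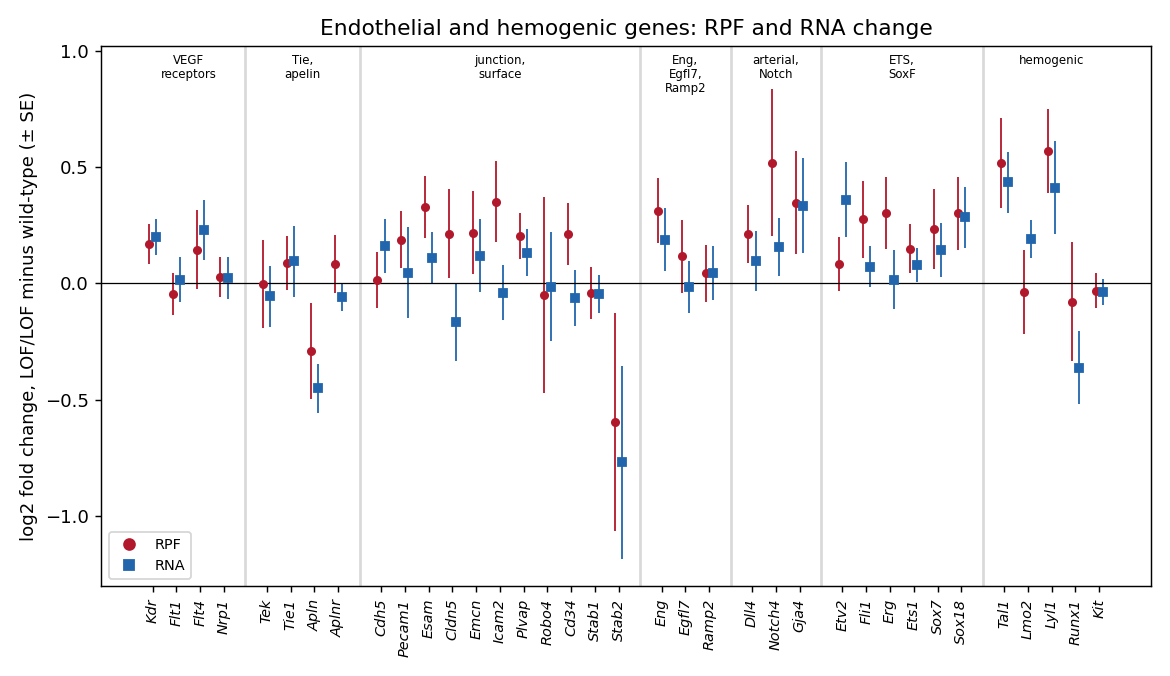
Log2 fold change, LOF/LOF minus wild-type, with SE, for RPF (red circles) and RNA (blue squares) of the 36 genes, grouped by role, n = 3 embryos per genotype. Most RPF points lie between 0 and 0.4, Lyl1 at 0.57 and Stab2 at -0.60 mark the ends, and Apln, at -0.45 in RNA, is the 1 gene past the threshold.

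The lean towards higher values was strongest in 1 embryo. LOF replicate 3 was the highest of the 6 RPF libraries for 29 of the 36 genes (80.6%, against 19.2% of all tested transcripts) and the highest of the 6 RNA libraries for 24 (66.7%, against 22.1%). Its members lay at a median of 0.34 above the WT mean in RPF and 0.28 in RNA, on the log2(CPM + 0.5) scale. The medians were 0.03 and 0.09 in RPF and -0.07 and 0.04 in RNA for LOF replicates 1 and 2. The WT libraries lay at -0.03 to 0.03, which the centring on their own mean keeps near 0. Without LOF replicate 3, the median log2 fold change was 0.05 in RPF, with 21 of 36 above 0, and -0.01 in RNA, with 14 above 0. This embryo was picked out after its values were seen, so the counts are a description.

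**Figure D3:**
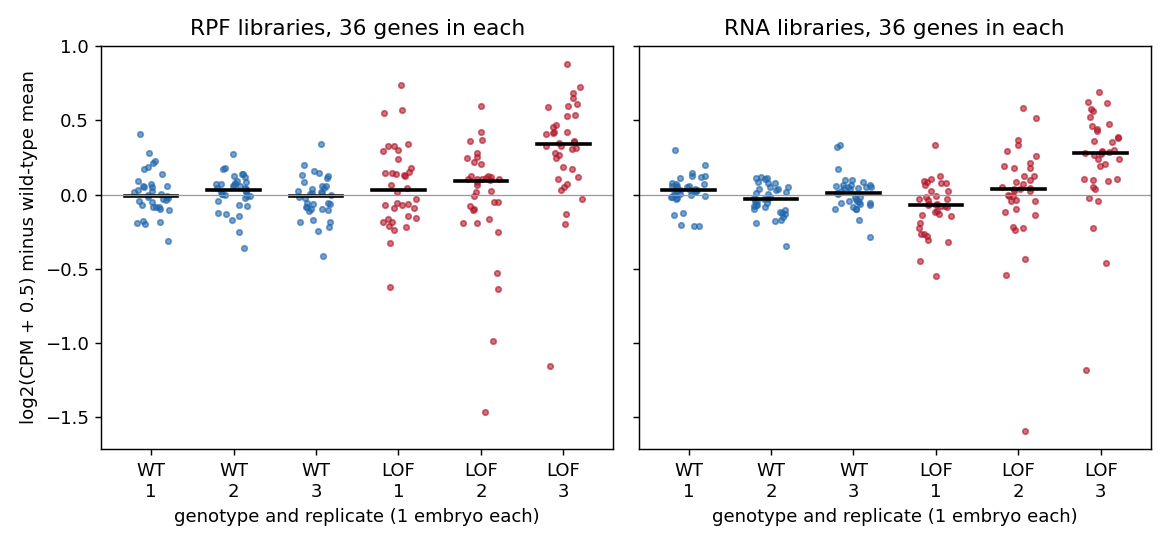
Each point is 1 of the 36 genes in 1 library, as log2(CPM + 0.5) minus that gene's WT mean; black bars are medians, left RPF and right RNA. LOF replicate 3 has medians of 0.34 and 0.28, and the other 5 embryos have medians between -0.07 and 0.09.

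A second list of 27 endothelial genes that are not members showed the same embryo apart. LOF replicate 3 was highest for 18 of 27 in RPF and for 18 of 27 in RNA, and its medians were 0.32 and 0.28. LOF replicates 1 and 2 had medians of -0.09 and -0.02 in RPF. The median log2 fold change of the list was 0.11 in RPF with all embryos, with 20 of 27 above 0, and -0.10 without LOF replicate 3, with 8 of 27 above 0, so its direction turned. It also turned with the Y-linked covariate and all embryos kept (-0.09, with 8 of 27 above 0). In RNA the median went from 0.09 to 0.00 without LOF replicate 3, with 14 of 27 above 0, and to -0.01 with the covariate, with 13 of 27 above 0. The summed members' RPF level was 1355, 1360 and 1305 CPM in WT and 1288, 1382 and 1627 CPM in LOF. LOF replicate 3 also had the lowest visceral endoderm sum (2860 CPM) and the lowest Y-linked sum (0.38 CPM), and the part of either in its endothelial values was not tested. With a covariate for Y-linked reads, the members' median was 0.02 in RPF and -0.01 in RNA.

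The VEGF receptors are large and abundant. Kdr, the main signalling receptor for VEGF (chr5:75932827-75978458, 30 exons), had 208.1, 211.1 and 195.6 RPF CPM in WT and 201.0, 236.3 and 253.9 in LOF. LOF replicate 1 lay within the WT range and the other two above it. The log2 fold change was 0.17 ± 0.09 (SE, adjusted p = 0.418 by edgeR). Limma-voom with sva called Kdr RPF higher (0.18, adjusted p = 0.0479), in a fit that called 10.4% of all transcripts. In RNA the values were 150.6, 160.8 and 145.2 against 154.4, 176.6 and 194.7 CPM, a difference of 0.20 ± 0.08 (adjusted p = 0.226 by edgeR). Kdr RNA passed without LOF replicate 1 (0.28, adjusted p = 0.0736 by edgeR), the lowest LOF embryo, so leaving it out enlarged the difference. Flt1, which also binds VEGF and limits its signal, differed by -0.05 ± 0.09 in RPF and 0.02 ± 0.10 in RNA. Flt4, the lymphatic VEGF receptor, differed by 0.14 ± 0.17 and 0.23 ± 0.13, and Nrp1 by 0.03 ± 0.09 and 0.02 ± 0.09. For Flt1 and Nrp1 the fold changes were smaller than their SE.

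Among the Tie and apelin genes, Apln was the 1 member that passed by edgeR. It was lower in RNA, where 3.25% of all tested transcripts passed as lower. Apelin is secreted by sprouting endothelial cells and signals through Aplnr, and Apln (chrX:48025146-48034853, 3 exons) is the 1 member on the X chromosome. Its RNA was 21.2, 22.3 and 18.1 CPM in WT and 16.4, 13.9 and 14.7 CPM in LOF. Every LOF embryo lay below every WT embryo, and the log2 fold change was -0.45 ± 0.10 (adjusted p = 0.0543 by edgeR). Its RPF values overlapped, at 5.21, 5.74 and 5.11 CPM in WT and 4.52, 3.26 and 5.23 CPM in LOF (-0.29 ± 0.20, adjusted p = 0.581 by edgeR). The RNA call was lost without WT replicate 1 (adjusted p = 0.184 by edgeR), WT replicate 2 (0.171), LOF replicate 2 (0.132) or LOF replicate 3 (0.122). It was also lost with the Y-linked covariate (-0.54, adjusted p = 0.276 by edgeR), in a fit that called 0.278% of all transcripts. LOF replicate 2, which like the WT embryos had Y-linked reads, had the lowest RNA value. The receptor Aplnr differed by 0.08 ± 0.13 in RPF and -0.06 ± 0.06 in RNA. Tek, the angiopoietin receptor, differed by 0.00 ± 0.19 and -0.06 ± 0.13, and its relative Tie1 by 0.09 ± 0.11 and 0.09 ± 0.15.

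The 11 junction and surface genes held no call in either measure by edgeR with all embryos kept. In RPF, limma-voom with sva called Esam higher (0.31, adjusted p = 0.0983) and Stab2 lower, in a fit that called 10.4% of all transcripts. Cdh5 had 135.7, 146.4 and 149.7 RPF CPM in WT and 122.0, 134.6 and 178.6 CPM in LOF. The LOF embryos fell on both sides of the WT range, and the difference was 0.02 ± 0.12. The junction protein Esam had 19.4, 24.1 and 23.04 RPF CPM in WT and 24.2, 26.3 and 32.2 CPM in LOF, with no overlap (0.33 ± 0.13, adjusted p = 0.303 by edgeR). Non-overlapping RPF values, higher in LOF, were found for 3 members (Esam, Dll4 and Lyl1), 9.92% being the background. Icam2, an adhesion molecule, differed by 0.35 ± 0.17 in RPF and -0.04 ± 0.12 in RNA. The tight junction gene Cldn5 differed by 0.21 ± 0.19 in RPF and -0.17 ± 0.17 in RNA. The remaining members of this group, Pecam1, Emcn, Plvap, Robo4, Cd34 and Stab1, lay between -0.05 and 0.22 in RPF.

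Stab2, a scavenger receptor of sinusoidal endothelium, split the LOF embryos. Its RPF was 7.77, 5.74 and 4.17 CPM in WT and 8.60, 1.75 and 2.28 CPM in LOF, and its RNA was 4.74, 4.34 and 3.23 CPM in WT and 4.26, 1.01 and 1.501 CPM in LOF. LOF replicate 1 was above all WT embryos in RPF and within their range in RNA, and LOF replicates 2 and 3 were below all other embryos. The log2 fold change was -0.60 ± 0.47 in RPF and -0.77 ± 0.41 in RNA, neither past the threshold by edgeR. With all embryos kept, limma-voom with sva called Stab2 in RPF (-1.06, adjusted p = 0.0485) but not in RNA. Without LOF replicate 1 both passed, at -1.54 in RPF (adjusted p = 0.0835 by edgeR) and -1.76 in RNA (adjusted p = 0.0261 by edgeR). That embryo had the highest LOF values, so leaving it out enlarged the difference, and these passes are a description. Lyve1, a hyaluronan receptor in the second endothelial list, was the 1 gene of that list that passed, and it fell in RPF by 1.18 on the log2 scale (SE 0.25, adjusted p = 0.0611) and in RNA by 0.94 (SE 0.26, adjusted p = 0.0972 by edgeR). Lyve1 RPF was 17.6, 14.8 and 9.90 CPM in WT and 7.43, 7.45 and 4.19 CPM in LOF. All LOF values were below all WT values. The Lyve1 calls were lost without WT replicate 1 (adjusted p = 0.303 in RPF and 0.279 in RNA), WT replicate 2 (0.243 and 0.217) or LOF replicate 3 (0.208 and 0.181), the RNA call also without LOF replicate 2 (0.212) or WT replicate 3 (0.104), or with the filter set on RNA libraries (0.122), and both with the Y-linked covariate (0.607 and 0.469). The log2 fold change in the fits that lost a call ran from -0.78 to -1.15 in RPF and from -0.74 to -1.08 in RNA. The covariate fits called 0.175% of all transcripts in RPF and 0.278% in RNA. Other fits called more of the list in RPF, 3 genes higher and 2 lower without LOF replicate 2, and 1 higher and 2 lower with limma-voom with sva. Of all transcripts, those fits called 11.5% and 10.4%.

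Eng, a co-receptor for BMP ligands, had 11.98, 11.5 and 14.5 RPF CPM in WT and 15.9, 13.7 and 17.4 CPM in LOF. The groups overlapped through WT replicate 3 and LOF replicate 2, and the difference was 0.31 ± 0.14 (adjusted p = 0.358 by edgeR). The secreted Egfl7 differed by 0.12 ± 0.16 and Ramp2 by 0.04 ± 0.12 in RPF.

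The arterial genes had low RPF levels per length in WT, 1.09 for Notch4, 6.70 for Dll4 and 7.11 for Gja4. Dll4, the arterial Notch ligand, had 13.3, 12.5 and 12.1 RPF CPM in WT and 13.99, 13.4 and 16.4 CPM in LOF, without overlap but close together (0.21 ± 0.13, adjusted p = 0.498 by edgeR). Its endothelial receptor Notch4 had 5.49, 7.26 and 5.21 RPF CPM in WT and 10.2, 3.96 and 11.3 CPM in LOF. LOF replicate 2 was below every WT embryo and the other two were above, giving 0.52 ± 0.32. Without LOF replicate 2 the value was 0.86 and passed (adjusted p = 0.0177 by edgeR), in a fit that called 11.5% of all transcripts. The embryo left out had the lowest LOF value, so the difference grew through that choice. Gja4, an arterial gap junction gene, differed by 0.35 ± 0.22 in RPF and 0.33 ± 0.20 in RNA.

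The 6 ETS and SoxF factors, which drive endothelial transcription, were all above 0 in both measures with none past the threshold. Their RPF log2 fold changes ran from 0.08 for Etv2 to 0.30 for Erg, with a median of 0.25, and their RNA values from 0.02 for Erg to 0.36 for Etv2. Of the others, Fli1 differed by 0.27 ± 0.17 in RPF and 0.07 ± 0.09 in RNA, Ets1 by 0.15 ± 0.10 and 0.08 ± 0.07, Sox7 by 0.23 ± 0.17 and 0.15 ± 0.12, and Sox18 by 0.30 ± 0.16 and 0.28 ± 0.13. Etv2 RNA was 5.76, 6.71 and 6.55 CPM in WT and 6.72, 8.11 and 10.5 CPM in LOF. The groups just failed to overlap (0.36 ± 0.16, adjusted p = 0.291 by edgeR). Etv2 RPF was 15.6, 17.4 and 16.8 CPM in WT and 15.9, 17.9 and 18.7 CPM in LOF, a difference of 0.08 ± 0.12. The group sum was 122.7 to 127.9 RPF CPM in WT and 126.5, 134.4 and 165.6 CPM in LOF, so LOF replicate 3 was again the highest.

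Of the hemogenic factors, Lyl1 and Tal1 had the smallest p in RPF among members by edgeR, both higher in LOF, without passing. In RNA Tal1 had the smallest p by edgeR among members higher in LOF, also without passing. Tal1 (chr4:115056426-115071755, 5 exons), a factor required for all blood lineages, had 24.8, 24.1 and 34.3 RNA CPM in WT and 34.6, 41.3 and 37.1 CPM in LOF. WT replicate 3 stood at the lower edge of the LOF embryos. The difference was 0.43 ± 0.13 in RNA (adjusted p = 0.129) and 0.52 ± 0.19 in RPF (adjusted p = 0.269 by edgeR). Tal1 RNA passed by edgeR without WT replicate 3 (0.63, adjusted p = 0.0250) and without a filter (adjusted p = 0.0390). It also passed in DESeq2 (adjusted p = 0.0266) and in limma-voom (adjusted p = 0.09995). WT replicate 3 had the highest WT value, so leaving it out enlarged the difference. The summed RNA of 12 primitive erythroid genes, a list without Tal1, was 698.7, 421.6 and 1756 CPM in WT and 1590, 2654 and 1878 CPM in LOF. In both, WT replicates 1 and 2 were the lowest embryos, LOF replicate 2 the highest and WT replicate 3 near the LOF embryos. Its part in the Tal1 values was not tested.

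Lyl1, a close relative of Tal1 (chr8:84701457-84704715, 4 exons), had 4.39, 4.33 and 4.38 RPF CPM in WT and 5.25, 6.87 and 7.13 CPM in LOF. Every LOF embryo was above the tight WT group, at 0.57 ± 0.18 (adjusted p = 0.185 by edgeR). Limma-voom with sva called Lyl1 RPF (0.57, adjusted p = 0.0741), in a fit that called 10.4% of all transcripts. In RNA the groups overlapped (3.50, 3.76 and 5.35 against 4.57, 6.14 and 6.65 CPM), at 0.41 ± 0.20. Lmo2, the bridging partner of Tal1, differed by -0.04 ± 0.18 in RPF and 0.19 ± 0.08 in RNA (adjusted p = 0.275 by edgeR). Runx1, which drives blood cell emergence, had 6.43, 5.14 and 6.07 RNA CPM in WT and 3.85, 4.88 and 4.93 CPM in LOF, a non-overlapping difference of -0.36 ± 0.15 (adjusted p = 0.271 by edgeR). Runx1 RPF was 1.77 to 2.65 CPM in the 6 embryos (-0.08 ± 0.26). The stem cell factor receptor Kit had 76.7 to 86.7 RPF CPM in all 6 embryos and differed by -0.03 ± 0.08 in RPF and -0.04 ± 0.06 in RNA.

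**Figure D4:**
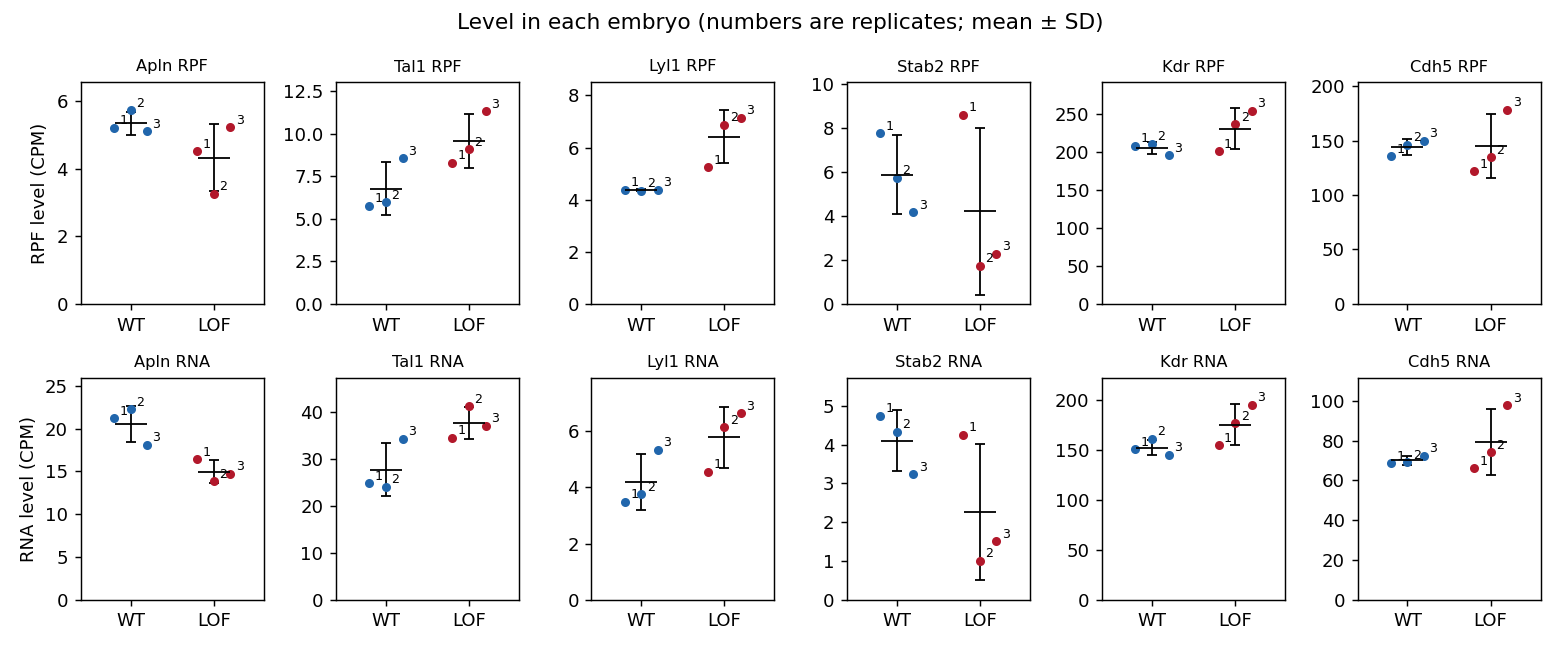
RPF (top) and RNA (bottom) levels in CPM for 6 genes in each embryo, with replicate numbers beside the points and mean ± SD bars, axes from 0. Apln RNA is lower in all 3 LOF embryos and Lyl1 RPF is higher in all 3. Stab2 in LOF replicate 1 is above the WT embryos in RPF and among them in RNA.

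The second comparison asked whether the number of ribosomes per mRNA differed. In a model of all 12 libraries, no member passed for the ratio of RPF to RNA and none had an unadjusted p under 0.05 (background 0.0% at FDR 0.1 and 4.44% at p under 0.05). DESeq2 and limma-voom also called none. The members' median log2 difference was 0.09 (27 of 36 above 0, background 52.0%), with a median SE of 0.20, so most intervals in this model include changes of 0.3 in size. The model did not pair the RPF and RNA of an embryo. Blocked by embryo, the median was 0.07, with 24 of 36 above 0, and none passed. The values ran from -0.27 ± 0.20 for Etv2 to 0.39 ± 0.22 for Icam2, which had the smallest p (0.102, adjusted p = 1.0 by edgeR). By embryo the members' ratio stood at medians of 0.12, -0.01 and 0.07 in LOF replicates 1 to 3 against the WT mean. The median log2 difference was 0.04 without LOF replicate 3, with 20 of 36 above 0, and -0.02 with the Y-linked covariate, with 15 of 36 above 0, so its direction turned.

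For 6 members the WT and LOF ratios did not overlap, against a background of 11.4%. They were lower in LOF for Cdh5 and Etv2 and higher for Esam, Cldn5, Cd34 and Runx1. The Cdh5 log2 ratio was 0.57, 0.61 and 0.63 in WT and 0.37, 0.43 and 0.46 in LOF, and its difference in the model was -0.15 ± 0.19. The Cldn5 log2 ratio was -0.24, -0.08 and -0.31 in WT and 0.06, 0.08 and 0.13 in LOF, at 0.38 ± 0.28 in the model.

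Genes that act with the members were followed in the same way. Of 25 ligands and pathway partners, 24 were tested and 1 passed, the Notch ligand Dll1, which fell in RPF by 0.52 on the log2 scale (SE 0.13, adjusted p = 0.0901 by edgeR). Dll1 RPF was 51.2, 55.4 and 44.8 CPM in WT and 42.7, 32.1 and 31.2 CPM in LOF, and its RNA differed by -0.19 ± 0.06 (adjusted p = 0.108 by edgeR). The Dll1 call was lost without WT replicate 1 (adjusted p = 0.346), WT replicate 2 (0.359), WT replicate 3 (0.120) or LOF replicate 3 (0.298), and with the Y-linked covariate (0.467), with log2 fold changes of -0.44 to -0.60 in these fits. The covariate fit called 0.175% of all transcripts in RPF. Other fits called more of the list in RPF, 4 genes higher and 1 lower without LOF replicate 2, and 3 higher and 2 lower with limma-voom with sva. Of all transcripts, those fits called 11.5% and 10.4%. RPF values did not overlap for 7 genes higher and 3 lower of the 24, against 3 and 0 of the 36 members. Over the 12576 tested transcripts these were 1247 and 1189. For RPF relative to RNA none passed. At an unadjusted p under 0.05 by edgeR 2 were higher and 2 lower in that ratio (background 4.44% in either direction). The median of this list was 0.18 in RPF and 0.08 in RNA, with 16 and 20 of 24 above 0. In RPF it was 0.08 without LOF replicate 3, with 14 of 24 above 0, and 0.06 with the Y-linked covariate, with 13 of 24 above 0. 

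The lists of neighbouring tissues had larger differences in the same libraries. All 12 primitive erythroid genes had positive fold changes, with 5 passing in RPF and 3 in RNA and medians of 1.30 and 1.08. The heme synthesis gene Alas2 (1.41 ± 0.29 in RPF, adjusted p = 0.0563), the red cell membrane genes Rhag (1.29 ± 0.27, adjusted p = 0.0572) and Slc4a1 (1.34 ± 0.29, adjusted p = 0.0679) and, in RNA, Ermap (1.29 ± 0.28, adjusted p = 0.0415 by edgeR) rose. All 11 visceral endoderm genes tested were lower in both measures, with medians of -1.11 and -1.29, and 10 passed in RPF and 11 in RNA. Among them were the apolipoprotein genes Apob (-1.14 ± 0.20 in RPF) and Apoa4 (-1.46 ± 0.30) and the endocytic receptor genes Amn (-1.20 ± 0.24) and Lrp2 (-0.39 ± 0.07). All 6 cardiac genes were higher in both measures, with medians of 0.44 and 0.29, and 4 passed in RPF and 5 in RNA. Those that passed in RPF were Myh6 (0.48 ± 0.11), Tnnt2 (0.50 ± 0.08), Myl4 (0.49 ± 0.08) and Actc1 (0.39 ± 0.07). Without 1 embryo in turn the calls ran from 0 to 10 in RPF and 0 to 12 in RNA for the erythroid list, from 0 to 11 and 3 to 11 for the visceral endoderm list, and from 0 to 5 and 2 to 5 for the cardiac list. The erythroid RNA median was 0.69 without WT replicate 2 and 1.73 without WT replicate 3. With the Y-linked covariate the erythroid list had 0 calls in either measure. The visceral endoderm list had 0 in RPF and 2 in RNA, and the cardiac list 1 in each. These covariate fits called 0.175% of all transcripts in RPF and 0.278% in RNA. The RPF and RNA medians were then 1.596 and 1.398 for the erythroid, -0.59 and -0.63 for the visceral endoderm and 0.39 and 0.34 for the cardiac list. The medians of these lists kept their sign in all of these fits.

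**Figure D5:**
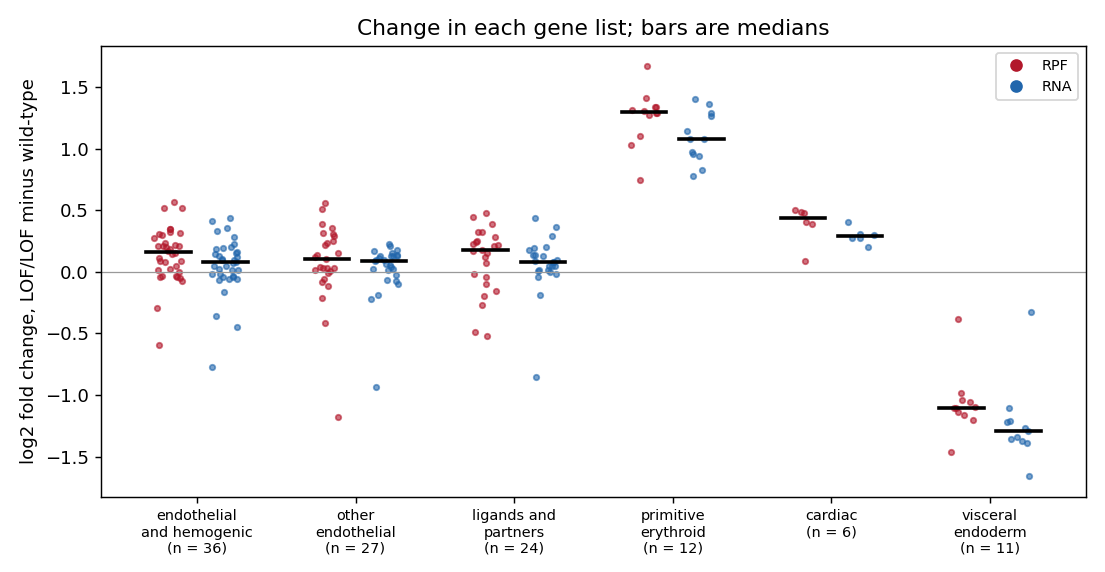
Log2 fold change, LOF/LOF minus wild-type, of each tested gene in 6 lists, RPF red and RNA blue, bars at the medians. The endothelial and hemogenic genes have medians of 0.16 and 0.08, against 1.30 and 1.08 for primitive erythroid and -1.11 and -1.29 for visceral endoderm genes.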

How the data were processed

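The deposited table holds whole-number counts per transcript for 12 libraries, an RPF and an RNA library from each of 6 embryos, without normalization. The authors trimmed reads with cutadapt, removed rRNA, tRNA and snRNA reads with Bowtie2, aligned the rest to GRCm38/mm10 transcripts of GENCODE and collapsed duplicate reads by UMI (UMI-tools). For RPF they counted footprints by A site, leaving out the first 15 and last 5 codons of the CDS, while RNA counts take in the whole transcript. A long transcript therefore collects more RNA reads, and levels were compared between genes only per length.

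As in the study's methods, a transcript was kept if its CPM exceeded 0.75 in 3 or more RPF libraries (12576 were), and RPF and RNA were scaled separately by TMM. Genotypes were compared with edgeR 4.0.16 (R 4.3.3), quasi-likelihood test, Benjamini-Hochberg adjustment over all kept transcripts and FDR 0.1. The study used limma-voom with sva and locfdr, whose design was not given in the sources used here, so limma 3.58.1 with and without sva 3.50.0 (2 surrogate variables) was an alternative, as was DESeq2 1.42.0. The interaction of genotype and library tested RPF against RNA. The steps were tested on simulated data. SE is the fold change divided by the square root of F.

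The members and the lists were chosen with earlier results of these data known. All members are named. From other lists, up to 4 genes past the threshold with the smallest p are named, or the 2 with the smallest RPF p where none passed. Kdr, Stab2, Notch4 and Tal1 settings are given where 1 embryo decided a call. Symbols came from GENCODE M21 by transcript ID (same version for 21987, another version for 477, no match for 3). RPF and RNA of an embryo pair by animal, with deviations correlated at 0.18 to 0.40. Replicate numbers shared by WT and LOF belong to different embryos. All replicate pairs differed by more than counting noise (chi-square per degree of freedom 2.15 to 10.2). The lists are visceral endoderm, primitive erythroid, cardiac, trophoblast, megakaryocyte and myeloid, other endothelial, and ligands and partners.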

Additional observations from a re-analysis of the deposited data

How the results depend on the processing

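Among the 36 genes, RPF calls numbered 0 under every setting tried except limma-voom with sva, which called 4 (Esam, Lyl1 and Kdr higher, Stab2 lower, where 10.4% of all transcripts were called), and the fits without 1 embryo, which called 0 to 1. In those fits 0.0318% to 11.5% of all transcripts were called in RPF and 1.1% to 4.72% in RNA, and the one that called Notch4 was the 11.5%. RNA calls numbered 2 (Tal1 higher and Apln lower) with DESeq2, limma-voom and no filter (4.92%, 5.63% and 3.51% of all transcripts called), 0 with limma-voom with sva (4.69%) and with the Y-linked covariate (0.278%), and 0 to 3 without 1 embryo. Calls for the ratio of RPF to RNA numbered 0 in every setting. With a replicate block the counts of calls were 0 in RPF, 1 in RNA and 0 in the ratio (blocked by embryo). In RPF and RNA the block used replicate numbers, which join different embryos, so only the block by embryo reflects a pairing. The causes were not tested. Apln RNA lost its call in limma-voom with sva (adjusted p = 0.1003), and its log2 fold change ran from -0.37 to -0.54 over the settings that lost it. When 1 embryo at a time was dropped, the median log2 fold change ran from 0.05 to 0.23 in RPF from -0.01 to 0.17 in RNA and from 0.04 to 0.13 in the ratio, lowest in all of them without LOF replicate 3. Of the single-gene values under all alternatives, 32 of 503 in RPF, 44 of 539 in RNA and 67 of 503 in the ratio changed sign. Apln RNA was not among them. The lowest member count was 5 in RPF and 11 in RNA, and counts were low in RPF for Robo4, Runx1 (lowest 13), Stab2 (15), Apln (28), Notch4 (34) and Lyl1 (36).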

Other observations

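Other blood lineages were thinly represented. Of 15 megakaryocyte and myeloid genes, 9 had enough RPF reads to be tested and none passed by edgeR, with medians of 0.28 in RPF and 0.06 in RNA. They were 0.02 and -0.13 without LOF replicate 3 and 0.01 and -0.01 with the Y-linked covariate. The RPF median was 0.09 without WT replicate 1, and the RNA median also turned negative without LOF replicate 2 (-0.01), with limma-voom (-0.09) and with sva (-0.10). At an unadjusted p under 0.05, 1 was lower in RPF, as were 831 of the 12576 tested transcripts. Myb, a factor of definitive blood progenitors, had 2.93, 1.99 and 2.71 RPF CPM in WT and 1.17, 1.75 and 1.62 CPM in LOF (-0.74 ± 0.28, adjusted p = 0.269 by edgeR), with no overlap. Coro1a, an actin regulator of white blood cells, differed by 0.28 ± 0.19. Of 6 trophoblast genes, 3 were tested and none passed by edgeR, with 1 higher in RPF at an unadjusted p under 0.05, as were 896 of the 12576. Prl3d1, a placental hormone gene, differed by 1.35 ± 0.58 and Plac1 by 0.80 ± 0.43 in RPF, and LOF replicate 3 had the highest RPF value of the 6 embryos for both (7.04 and 33.8 CPM, against at most 3.13 and 14.1 CPM in the others). The third, Prl8a2, named after its values were seen, had no such pattern, with 116.2, 279.0 and 113.3 RPF CPM in WT and 312.6, 70.4 and 120.3 CPM in LOF, highest in LOF replicate 1. It differed by -0.02 ± 0.47 in RPF and -0.72 ± 0.36 in RNA.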
